A study of Rattus norvegicus with 24 samples.

Results

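The chemokines and chemokine receptors measured in this rat mammary gland series comprised 54 probe sets of 42 genes. They were taken from 31042 probe sets, of which those annotated to exactly 1 gene covered 14217 genes, as every such probe set whose symbol was Ccl, Cxcl, Ccr or Cxcr with a number, or was Cx3cl1, Cx3cr1, Xcl1 or Ackr3. The CXC ligands had 19 probe sets of 11 genes, the CC ligands 17 of 16 genes, the CXC receptors 8 of 5 genes and the CC receptors 6 of 6 genes, and Cx3cl1, Xcl1, Cx3cr1 and Ackr3 had 1 probe set each. Sprague-Dawley rats carried implanted osmotic minipumps from postnatal day 21 to postnatal day 33, when the abdominal mammary glands were taken. The pumps delivered 17β-estradiol, the main ovarian estrogen, at 0, 0.1, 1 or 10 µg/kg/day. The pumps are named in the design text of the series, whereas the labels of the samples list these doses as diet. Males and females at the 4 doses made 8 groups of 3 Affymetrix arrays, 24 in all, and the males and females at 0 were the controls of the other doses of their sex. Whether the arrays of a group came from different animals is not in the labels, and p-values here cover the spread between arrays only, which may be technical.

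Chemokines are small secreted proteins that guide migrating cells through receptors coupled to G proteins. Inflammatory chemokines call neutrophils, monocytes and activated lymphocytes into tissue, while homeostatic ones such as Ccl19, Ccl21 and Cxcl13 keep T cells, B cells and dendritic cells in lymph nodes, and Cxcl12 and Cxcl14 are made by stromal cells of many tissues. The mammary fat pad of rodents holds a lymph node, so whole-gland RNA can carry lymph node transcripts as well as those of the ducts, fat and connective tissue.

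The deposited values are signed log values, taken here as log2, and appear to have been centred within each sex, although the sign of this was found in less than 50% of probe sets. A value was therefore not read as an absolute level, males and females were not compared in level, and the tissue and sex labels were not checked against their markers. The number of arrays limits the precision. Differences are log2 differences from the same sex at 0 with their standard error (SE, n = 3 arrays per group), tested with limma at an adjusted p of 0.05 (Benjamini-Hochberg over 31042 probe sets). The 3 comparisons within a sex share their control arrays. In bulk tissue, fewer cells of a type and less RNA per cell cannot be told apart. The mean over 16 T cell and 13 B cell marker genes, called the lymphocyte score here, ranged from -1.95 to 1.12 over the 24 arrays. Hepatocyte transcripts were high in 5 arrays. Among the males these were replicates 2 and 3 at 0, with marker means of 1.47 and 2.56, and replicate 7 at 1, with 1.13. Among the females they were replicate 1 at 0, with 2.43, and replicate 7 at 1, with 0.92.

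At 10 µg/kg/day, 7 chemokine probe sets changed in males, 3 changed in females, and the ligand Cxcl14 and the neutrophil receptor Cxcr2 fell in both sexes. In males the 7 were 13.0% of the 54, beside 17.5% of all probe sets tested, 7.81% higher and 9.64% lower, so the chemokine share was no larger than that of the array. Those lower in males were 1 of the 3 probe sets of Cxcl12, both probe sets of Cxcl14, Cxcr2 and Ccl9, and those higher were Ccl21 and Xcl1. The difference between the 3′ and 5′ control probe sets of beta-actin, which rises as RNA breaks down, was -0.02, 0.16 and 0.05 in males at 10, and -0.56, -0.06 and -0.28 in males at 0. With it as a covariate, 3 chemokine probe sets were called in males at 10, those of Cxcl12, Cxcr2 and Cxcl14 (1388485_at), and without male replicate 2 at 0 the count was 13. In females the 3 were lower, Cxcl13, 1 probe set of Cxcl14 and Cxcr2, and made 5.56% of the set beside 1.86% of all probe sets, 1.05% lower. The median difference over the 54 probe sets was -0.12 in females at 10, where the median of all probe sets was -0.01. With the lymphocyte score as a covariate the female median of the 54 was -0.03. In males at 10 the median of the 54 was -0.0009 without that covariate, beside -0.0053 for all probe sets. The female count was 0 without female replicate 1 at 0 or replicate 10 at 10, and 1 without replicate 2 or 3 at 0 or replicate 11 at 10. Without replicate 3 at 0 that 1 was not among the 3 named here, which all lost their calls.

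At 1 µg/kg/day in males, Cxcr2 fell and 1 probe set of Cxcl3 rose, 3.70% of the set beside 3.63% of all probe sets. That count was 0 without male replicate 1 or 2 at 0 or replicate 9 at 1, 1 without replicate 7 or 8 at 1, and 4 without replicate 3 at 0. No chemokine probe set passed limma's test in females at 1, where 3 of 54 had an unadjusted p below 0.05, beside 2.73% of all probe sets. The 0.1 dose also gave 0 calls in each sex. Of the 54, 10 had an unadjusted p below 0.05 in males at 0.1 and 7 in females at 0.1, beside 11.9% and 9.93% of all probe sets. In these 3 comparisons, 0% of all probe sets were called.

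Cxcl14, a chemokine made by epithelial and stromal cells, was read by 2 probe sets. On the probe set 1388485_at, the males read 0.60, 0.43 and 0.19 at 0, then 0.05, 0.14 and 0.02 at 0.1, then -0.27, -0.02 and -0.18 at 1, and -0.91, -1.12 and -1.25 at 10. All 3 arrays at 10 lay below the 9 at the lower doses. In females it read 0.39, 0.48 and 0.51 at 0, then 0.06, -0.17 and -0.71 at 0.1, then -0.06, 0.82 and 0.09 at 1, and -0.50, -0.50 and -0.26 at 10. The female arrays at 10 lay below those at 0 without overlap, while the arrays at 0.1 reached lower than they did.

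Cxcl14 fell by 1.50 ± 0.19 in males at 10 (adjusted p = 5.09e-05) and by 0.88 ± 0.19 in females at 10 (adjusted p = 0.0213). The difference at the lower doses was -0.34 ± 0.19 at 0.1 and -0.56 ± 0.19 at 1 in males, neither past the test. On the other probe set, 1396129_at, it fell by 0.91 ± 0.17 in males at 10 (adjusted p = 0.00116) and differed by -0.48 ± 0.17 in females at 10, which did not pass (adjusted p = 0.171). The fall of Cxcl14 in males passed the test whichever array was left out, on both probe sets. In females it was lost on 1388485_at without any 1 of the control arrays or of replicates 10 and 11 at 10, with adjusted p-values between 0.0653 and 0.0998. The male and female differences on 1388485_at were not shown to differ, the interaction being -0.61 (95% confidence interval -1.18 to -0.05, adjusted p = 0.231).

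Cxcr2, the receptor through which neutrophils follow CXC ligands such as Cxcl1 and Cxcl2, was called in 3 dose comparisons. In males it read 1.06, 0.73 and 0.41 at 0, then 0.27, 0.53 and 0.10 at 0.1, then -0.01, 0.12 and -0.09 at 1, and -0.44, -0.39 and -0.38 at 10. The male values at 10 were tight and lay below every other male array. In females it read 0.79, 0.19 and 0.32 at 0, then 0.02, -0.11 and -0.02 at 0.1, then 0.10, 0.46 and -0.02 at 1, and -0.09, -0.20 and -0.34 at 10.

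Cxcr2 fell by 1.14 ± 0.16 in males at 10 (adjusted p = 0.000125), by 0.73 ± 0.16 in males at 1 (adjusted p = 0.0191) and by 0.64 ± 0.16 in females at 10 (adjusted p = 0.0466). The male fall at 10 passed the test whichever array was left out. Without female replicate 1 at 0, the array with the highest hepatocyte score of the females, the female difference was -0.46 (adjusted p = 0.222), and the female call was lost as well without any 1 of 4 other arrays (adjusted p from 0.0844 to 0.125). The male call at 1 was lost without any 1 of 4 arrays (adjusted p from 0.0538 in the absence of male replicate 2 at 0 to 0.136 in that of male replicate 1 at 0). Of the 6 measured neutrophil markers, 0 passed the test in either sex at 10, beside 17.5% of all probe sets in males and 1.86% in females. Their mean was 0.15 to 0.64 in males at 10 and -0.33 to -0.12 in males at 0, where Cxcr2 lay the other way. The list's median difference in males at 10 was 0.46, and 0.19 with the lymphocyte score as a covariate. In females the mean was -0.40 to 0.03 at 10 and -0.05 to 0.42 at 0. The female groups overlapped, and 5 of the 6 probe sets pointed lower at 10, as Cxcr2 did. Mast cell markers fell in 9 of 13 probe sets in males at 10, beside 9.64% of all probe sets. Their male means were -0.61 to -0.25 at 10 and 0.11 to 0.56 at 0. They fell in 6 of 13 in females at 10, beside 1.05% of all probe sets. Their female means were -0.45 to -0.25 at 10 and 0.25 to 0.36 at 0. The part of these cells in the fall of Cxcr2 was not tested. Cxcr1, the other neutrophil receptor and the direct genomic neighbour of Cxcr2, passed in no comparison.

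**Figure D1:**
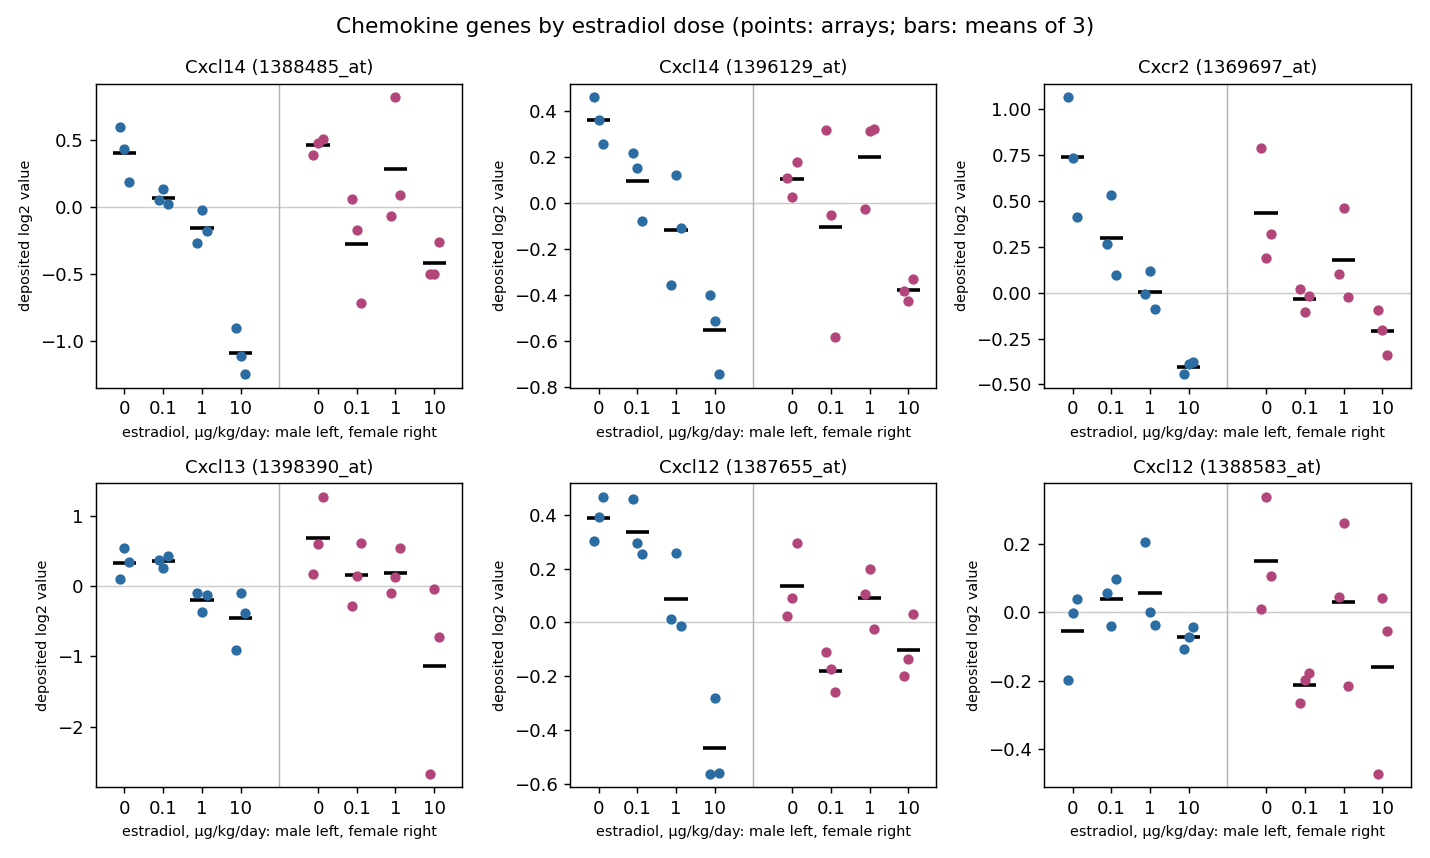
Values of Cxcl14, Cxcr2, Cxcl13 and Cxcl12 in each array (points; y axis: deposited log2 value; x axis: estradiol dose, males left and females right), with bars at the mean of 3. In males at 10 µg/kg/day both probe sets of Cxcl14, Cxcr2 and the probe set 1387655_at of Cxcl12 lie below the arrays at 0, whereas the probe set 1388583_at of Cxcl12 overlaps between these groups.

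Promoter sequences were at hand for 33 of the 42 genes, from RefSeq on the rat build GRCr8, each with 250 bases before and 50 after the start of the gene. They were searched on both strands for the full estrogen response element GGTCANNNTGACC, its half-site AGGTCA, the NF-kB site by name, an interferon response element GAAANNGAAA and the TATA box TATAAA. None of the 33 held the full element, which 0.0269% of 33469 promoters held. The half-site, whose letters overlap with the full element, stood in 10 of 33 (30.3%, beside 16.2% of all promoters). Of the 14 genes with a positive lymphocyte slope, 10 had a promoter at hand. The half-site stood in 6 of these 10 and in 4 of the 23 others. NF-kB letters stood in 9 of 33 (27.3%, beside 7.51%), in 1 of the 10 and in 8 of the 23. The interferon element stood in 2 (6.06%, beside 3.92%) and the TATA box in 10 (30.3%, beside 14.2%). Matches are descriptions of these windows and not binding sites.

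The promoters of Cxcl14 and Cxcr2 are shown because both genes fell at 10 in each sex, with the letters of a searched motif in capitals.
Cxcl14 (GRCr8, chr17:8322900-8323199, plus strand): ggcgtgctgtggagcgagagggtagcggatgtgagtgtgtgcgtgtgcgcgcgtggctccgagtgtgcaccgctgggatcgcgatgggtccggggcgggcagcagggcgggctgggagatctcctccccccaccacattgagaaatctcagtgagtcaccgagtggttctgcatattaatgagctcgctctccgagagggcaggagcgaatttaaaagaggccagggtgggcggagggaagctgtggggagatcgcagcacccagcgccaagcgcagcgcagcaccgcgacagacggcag
Cxcr2 (GRCr8, chr9:83178395-83178694, plus strand): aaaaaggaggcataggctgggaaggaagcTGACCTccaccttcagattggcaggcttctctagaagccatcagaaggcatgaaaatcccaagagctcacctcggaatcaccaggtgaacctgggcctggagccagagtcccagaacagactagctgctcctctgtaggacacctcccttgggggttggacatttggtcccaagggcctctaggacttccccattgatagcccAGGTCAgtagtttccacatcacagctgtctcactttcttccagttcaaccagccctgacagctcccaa
The Cxcl14 window held none of the motifs searched. In Cxcr2 the capitals are half-sites, at -221 and -18 from the start of the gene.

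Cxcl12, the stromal ligand that retains Cxcr4-bearing cells in bone marrow and connective tissue, was read by 3 probe sets, and they did not move alike. On 1387655_at, males read 0.30, 0.39 and 0.46 at 0, then 0.46, 0.30 and 0.25 at 0.1, then 0.01, 0.26 and -0.01 at 1, and -0.56, -0.28 and -0.56 at 10. The males at 10 were all below the other 9 male arrays. Females read 0.02, 0.09 and 0.29 at 0, then -0.11, -0.17 and -0.26 at 0.1, then 0.10, 0.20 and -0.02 at 1, and -0.20, -0.13 and 0.03 at 10, with the groups at 10 and 0 overlapping.

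The fall of Cxcl12 on 1387655_at in males at 10 was 0.85 on the log2 scale (difference -0.85 ± 0.10, adjusted p = 2.33e-05) and held whichever array was left out, between -0.95 and -0.81. In females at 10 the difference was -0.24 ± 0.10 (adjusted p = 0.301). The male difference was larger than the female one by the test of the difference itself, an interaction of -0.61 ± 0.14 (95% confidence interval -0.91 to -0.32, adjusted p = 0.0390), beside 1.28% of all probe sets. This was the only chemokine probe set called in an interaction, and the call was lost without any 1 of 10 of the 12 arrays concerned (adjusted p from 0.0529 to 0.104). It was kept without female replicate 11 or male replicate 11 at 10. On the other probe sets of Cxcl12 the male difference at 10 was -0.10 ± 0.10 (1369633_at) and -0.02 ± 0.13 (1388583_at), with 95% confidence intervals of -0.31 to 0.10 and -0.28 to 0.25. Neither probe set passed in any dose comparison, and which part of the transcript each one reads is not given in the sources used here. In the interactions at 0.1 and 1, limma called 0 of 54, with 3 and 8 at an unadjusted p below 0.05, beside 7.30% and 9.85% of all probe sets. The shares of all probe sets called in these interactions were 0% and 0.0483%.

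Marker lists of the cells that can make Cxcl12 and Cxcl14 moved in males at 10. Of all probe sets, 9.64% were lower and 7.81% higher there, and 8.99% were called with the lymphocyte score as a covariate. In males at 10, 27 of 30 white adipocyte probe sets fell, and the list's mean was -0.84 to -0.60 at 10 and 0.38 to 0.54 at 0. Endothelial markers fell in 13 of 16 probe sets, with means of -0.27 to -0.13 at 10 and 0.32 to 0.34 at 0. Of 36 fibroblast probe sets 13 fell and 2 rose, with means of -0.11 to 0.01 at 10 and 0.06 to 0.20 at 0, and with the lymphocyte score as a covariate 6 fell and 0 rose. Epithelial markers rose in the same comparison, in 6 of 18 luminal probe sets (0 with that covariate) and in 5 of 14 basal ones, where 1 other fell. The luminal mean was -0.11 to 0.27 in males at 10 and -1.06 to 0.0096 in males at 0. The females at 10 had falls in 18 of 30 white adipocyte and 3 of 16 endothelial probe sets, and rises in 1 of 36 fibroblast, 3 of 18 luminal and 1 of 14 basal ones. Of all probe sets 1.86% were called in females at 10, with 1.05% lower. The part of these cells in the falls of Cxcl12 and Cxcl14 was not tested. Among arrays of one group, the slope of Cxcl12 on the fibroblast score was 0.34 ± 0.33 for 1387655_at, and those of its other probe sets were 0.04 ± 0.32 and 0.05 ± 0.42, none past the test.

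A second set of chemokine genes followed the lymphocyte content of single arrays. With the 8 group means held in the fit, the slope on the lymphocyte score passed the test in 19 of 54 probe sets, 17 positive and 2 negative. The positive ones were 31.5% of the set, beside 15.2% of all probe sets tested, and the negative ones 3.70% beside 11.8%. A slope of 1 means that the probe set moved as far between arrays of the same sex and dose as the mean of the lymphocyte markers did. The marker list holds no chemokine or chemokine receptor.

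Ccl19 and Ccr6 had the steepest slopes. Ccl19, a lymph node stromal ligand that positions T cells and dendritic cells, had a slope of 1.04 ± 0.04 (adjusted p = 1.59e-12), and Ccr6, the Ccl20 receptor of B cells and some T cells, one of 1.04 ± 0.06 (adjusted p = 6.12e-10). In females at 10 Ccl19 read -2.08, 0.77 and -0.15, where the lymphocyte score read -1.95, 0.73 and -0.06. Ccr6 read -2.35, 1.01 and -0.11 in the same 3 arrays, in the same order as the score. In males at 0 Ccl19 read -2.35, -0.07 and -1.30 and the score -1.80, 0.23 and -1.34.

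**Figure D2:**
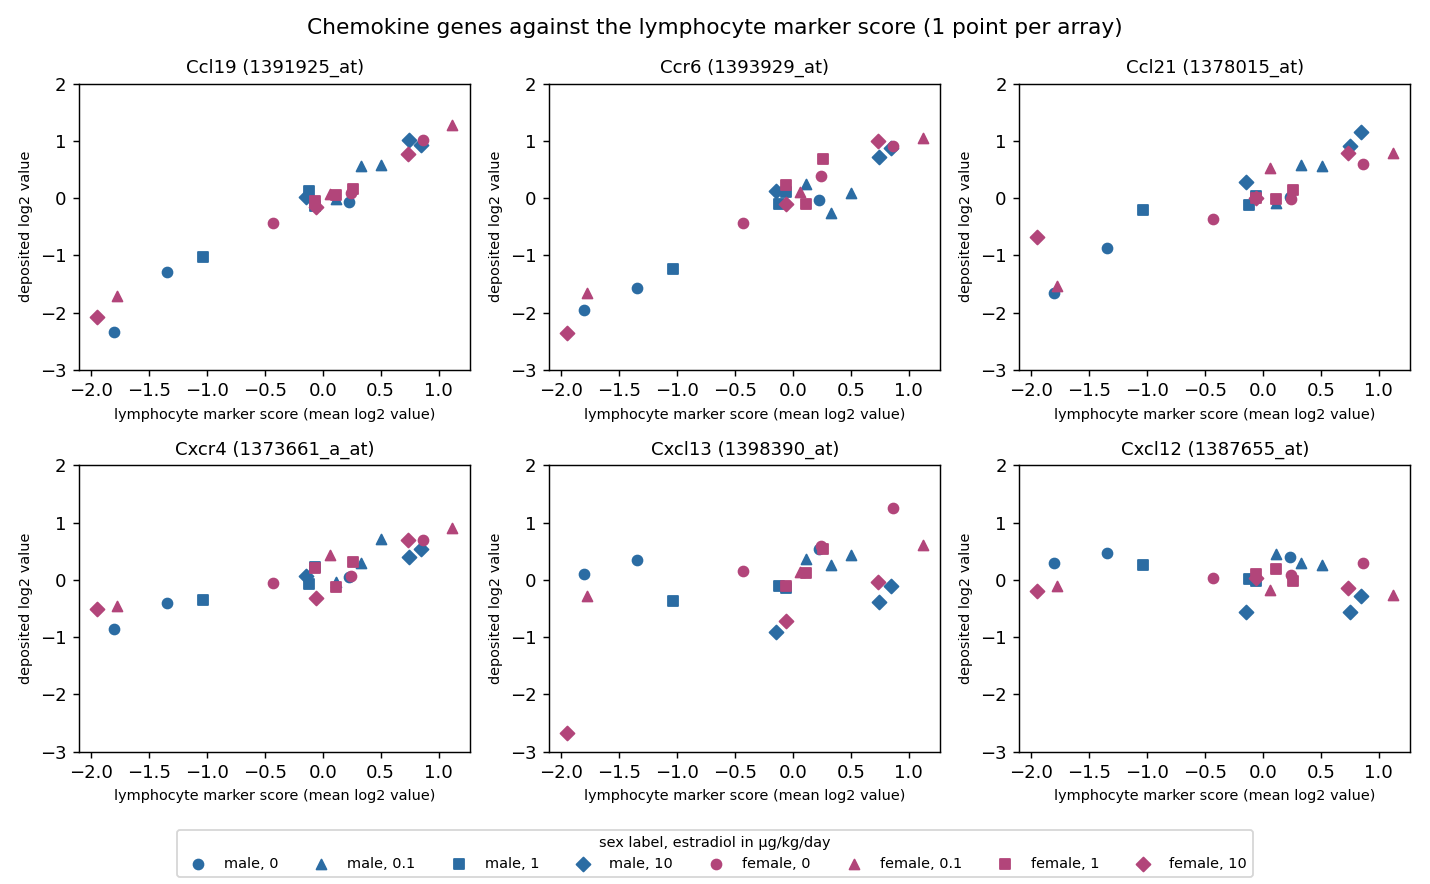
The chemokine genes Ccl19, Ccr6, Ccl21, Cxcr4, Cxcl13 and Cxcl12 plotted against the lymphocyte score, with 1 point per array (both axes: deposited log2 values, x their mean over markers; symbols: dose; colours: sex label). Ccl19 and Ccr6 run along the score with slopes of 1.04, Ccl21, Cxcr4 and Cxcl13 follow with slopes of 0.69, 0.45 and 0.55, and the slope of Cxcl12 on the probe set 1387655_at is 0.00.

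The promoters of Ccl19, which had the smallest p of the slopes, and of Cxcl13 are shown with the motifs named above in capitals. Cxcl13 had a positive slope on the score and was called lower in females at 10.
Ccl19 (GRCr8, chr5:61761115-61761414, minus strand): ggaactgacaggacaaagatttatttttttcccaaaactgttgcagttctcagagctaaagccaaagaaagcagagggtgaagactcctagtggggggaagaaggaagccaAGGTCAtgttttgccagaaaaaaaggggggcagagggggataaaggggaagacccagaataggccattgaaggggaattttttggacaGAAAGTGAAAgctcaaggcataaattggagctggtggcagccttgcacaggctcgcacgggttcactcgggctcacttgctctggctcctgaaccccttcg
Cxcl13 (GRCr8, chr14:13917871-13918170, minus strand): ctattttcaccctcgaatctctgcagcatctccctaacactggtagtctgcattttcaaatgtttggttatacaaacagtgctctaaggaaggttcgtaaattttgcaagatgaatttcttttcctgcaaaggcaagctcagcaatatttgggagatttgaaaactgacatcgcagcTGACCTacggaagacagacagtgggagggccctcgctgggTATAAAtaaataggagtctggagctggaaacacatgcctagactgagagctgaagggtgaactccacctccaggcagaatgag
Ccl19 holds a half-site at -139 and the interferon element at -51, and Cxcl13 holds a half-site at -73 and a TATA box at -33.

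Among the other ligands, Ccl21, the companion of Ccl19 on lymphatic and lymph node stroma, had a slope of 0.69 ± 0.07. Ccl17 and Ccl22, the dendritic cell ligands of Ccr4, had slopes of 0.63 ± 0.07 for Ccl17 and of 0.31 ± 0.07 and 0.24 ± 0.05 on the 2 probe sets of Ccl22. Cxcl13, which draws B cells into follicles, had 0.55 ± 0.09, and Ccl5, a product of T cells and natural killer cells, 0.56 ± 0.09. Smaller slopes passed for Ccl20 (0.32 ± 0.08), Ccl3 (0.29 ± 0.04), Ccl4 (0.28 ± 0.04) and Xcl1 (0.22 ± 0.06). These ligands span lymph node stroma, dendritic cells and activated lymphocytes.

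Among the receptors, Cxcr3 of activated T cells had a slope of 0.58 ± 0.04, and the 3 probe sets of Cxcr4, the Cxcl12 receptor of most leukocytes, had 0.45 ± 0.06, 0.45 ± 0.07 and 0.44 ± 0.06. Ccr4 had 0.16 ± 0.06 (adjusted p = 0.0442). The negative slopes belonged to Ackr3, the atypical receptor that scavenges Cxcl12 (-0.14 ± 0.04, adjusted p = 0.0168), and Ccr3, the eosinophil receptor (-0.11 ± 0.04, adjusted p = 0.0331). The 2 probe sets of Cxcr5, the B cell receptor for Cxcl13, had slopes of 0.16 ± 0.06 and 0.00 ± 0.03, which did not pass (adjusted p = 0.0517 and 0.993). Cxcl12 had slopes of 0.00 ± 0.04, 0.06 ± 0.03 and 0.09 ± 0.04, and those of Cxcl14 were -0.10 ± 0.06 and -0.13 ± 0.05, none past the test. The slopes of Cxcl12 and of its receptor Cxcr4 were not tested against each other.

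**Figure D3:**
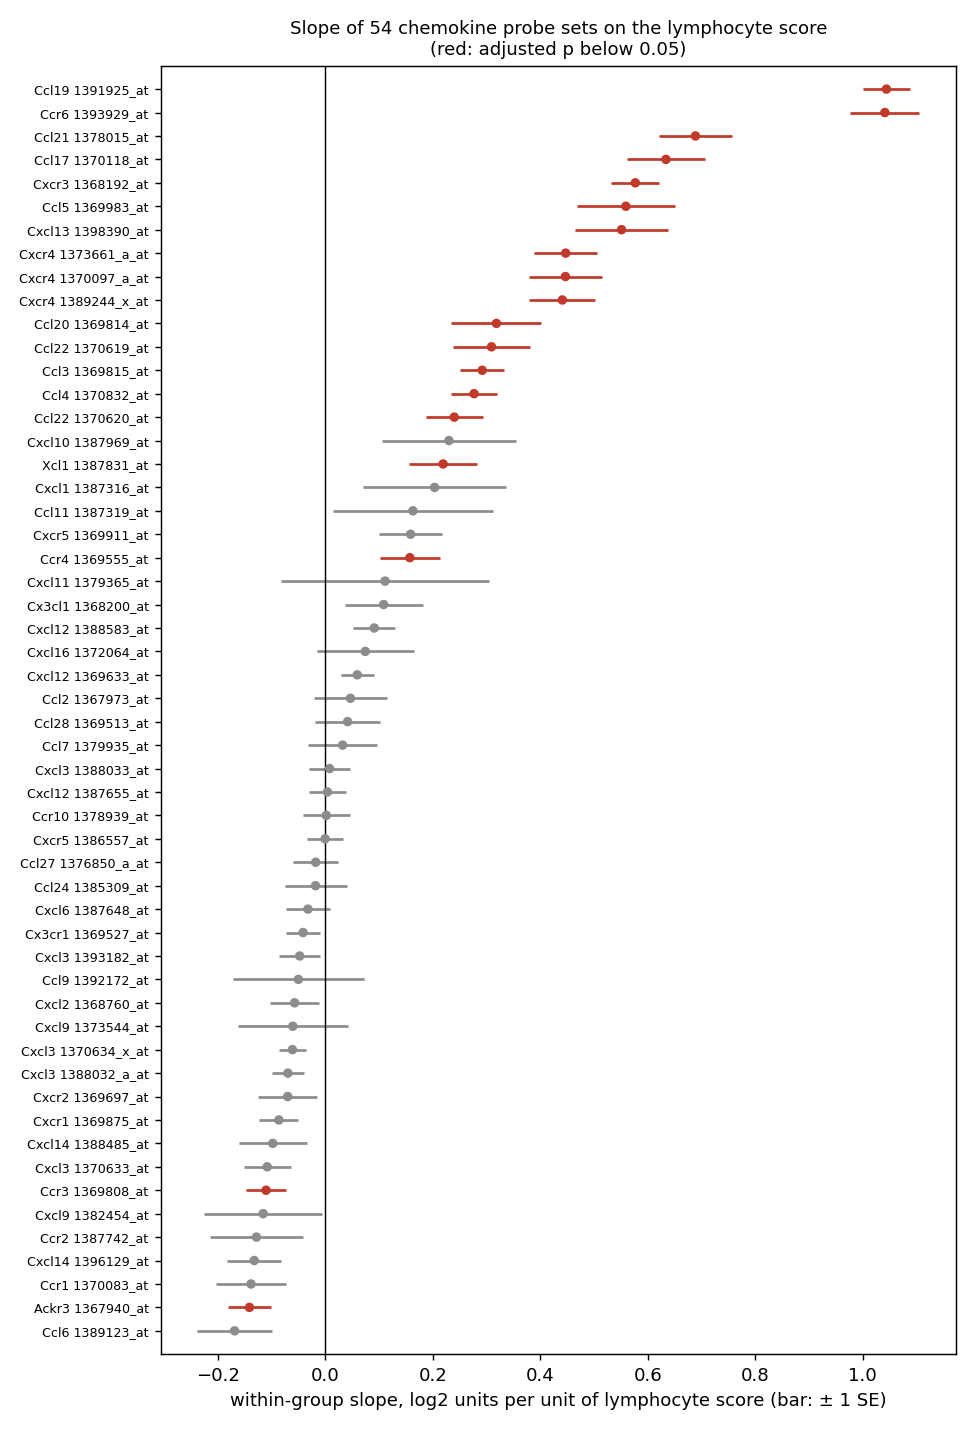
Slope of each of the 54 chemokine probe sets on the lymphocyte score (x axis: log2 units per unit of score, bars ± 1 SE), ordered by slope, with those past an adjusted p of 0.05 in red. The 17 positive slopes that passed run from 0.16 for Ccr4 to 1.04 for Ccl19 and Ccr6, and the 3 probe sets of Cxcl12 lie between 0.00 and 0.09.

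Within the females alone 14 slopes passed and within the males alone 10, all of them positive in each sex. On the fibroblast score, which varied far less between arrays of a group (SD 0.09, beside 0.88 for the lymphocyte score), 2 slopes passed, both negative, beside 1.13% of all probe sets. They were -1.99 ± 0.43 for Ccr4 and -2.45 ± 0.46 for the probe set 1370620_at of Ccl22, and neither passed with the lymphocyte, fibroblast and macrophage scores in 1 fit. On the macrophage score limma called 0 of 54, beside 0.00322% of all probe sets. Its largest slope by p was that of Cxcl10, at 2.42 ± 0.64 (unadjusted p = 0.00139, adjusted p = 0.327).

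The lymphocyte score was not evenly spread over the dose groups. It was -0.14, 0.85 and 0.75 in males at 10, and -1.80, 0.23 and -1.34 in males at 0, so the groups overlapped in 1 control array. Medians of the marker lists were 1.51 for 24 T cell probe sets and 1.63 for 20 B cell probe sets at 10 in males. Of these 0 passed, beside 17.5% of all probe sets. Among the females at 10 these medians were -0.63 and -0.65, again with 0 passing, beside 1.86% of all probe sets. The female score was -1.95, 0.73 and -0.06 at 10, and -0.43, 0.24 and 0.87 at 0, so these groups overlapped. The 17 followers had median differences of 0.65, 0.31 and 0.69 in males at 0.1, 1 and 10, and of -0.28 in females at 10. The median over all probe sets was -0.01 in each of these comparisons. With the lymphocyte score as a covariate the followers' median in males at 10 was 0.18. The followers were chosen by their positive slope on this score in the same arrays. The smaller median therefore follows from that choice, and no conclusion is drawn from it.

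Ccl21 and Xcl1 were the followers called in males at 10. Ccl21 read 0.27, 1.16 and 0.91 in males at 10, and -1.66, 0.02 and -0.87 in males at 0. The groups did not overlap, and it rose by 1.61 ± 0.50 (adjusted p = 0.0309). With the lymphocyte score as a covariate the difference was 0.61 ± 0.22 and did not pass (adjusted p = 0.0879). The call was also lost without male replicate 1 at 0 (1.20, adjusted p = 0.175), male replicate 3 at 0 (1.60, adjusted p = 0.0703), male replicate 11 at 10 (1.43, adjusted p = 0.122) or male replicate 12 at 10 (1.55, adjusted p = 0.0870). Ccl19 and Ccr6 had male differences of 1.90 ± 0.70 and 1.76 ± 0.72 at 10, which did not pass, and of 0.38 ± 0.14 and 0.24 ± 0.21 with the covariate.

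Xcl1, lymphotactin, made by T cells and natural killer cells, was the other follower called. It read 0.44, 0.55 and 0.66 in males at 10, and -0.75, -0.22 and -0.57 in males at 0, with no overlap. Xcl1 rose by 1.06 ± 0.23 (adjusted p = 0.00401) and by 0.75 ± 0.21 with the covariate (adjusted p = 0.0285), and the rise passed whichever array was left out. It did not pass with the lymphocyte, hepatocyte and skeletal muscle scores in 1 fit (0.63, adjusted p = 0.118) or with the beta-actin difference as a covariate (0.69, adjusted p = 0.259). The call of Ccl21 was lost in these fits as well, and Ccl21 and Xcl1 were not tested against each other. In females at 10 Xcl1 read 0.35 in replicate 11 and near 0 in the other arrays, a difference of 0.27 ± 0.23 (adjusted p = 0.723).

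Cxcl13 followed the score and was also called lower in females at the highest dose. In females it read 0.16, 0.60 and 1.26 at 0, then -0.28, 0.15 and 0.61 at 0.1, then -0.10, 0.13 and 0.54 at 1, and -2.67, -0.04 and -0.72 at 10. The arrays at 10 lay below those at 0, and the lowest of them was also the array with the lowest lymphocyte score. Cxcl13 fell by 1.82 ± 0.44 in females at 10 (adjusted p = 0.0376) and by 1.46 ± 0.25 with the covariate (adjusted p = 0.00404). Without female replicate 10 at 10 the difference was -1.06 (adjusted p = 0.148), and the call was lost as well without any 1 of the control arrays (adjusted p from 0.0600 to 0.165).

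In males Cxcl13 read 0.10, 0.54 and 0.35 at 0, then 0.36, 0.26 and 0.43 at 0.1, then -0.11, -0.38 and -0.13 at 1, and -0.91, -0.10 and -0.38 at 10. The males at 1 and at 10 lay below those at 0 without overlap. The male difference at 10 was -0.79 ± 0.44 and did not pass (adjusted p = 0.223), and Cxcl13 fell by 1.59 ± 0.28 with the covariate (adjusted p = 0.00151). The covariate takes 1 slope for both sexes, and in the male arrays alone the slope of Cxcl13 was 0.29 and did not pass (adjusted p = 0.0899), so the male value with the covariate rests on the pooled slope. Of the 12 probe sets of the list for follicular dendritic cells and lymph node stroma, 4 rose in males at 10 and 0 fell. Over the whole array 7.81% of probe sets were higher there. The 4 were 2 probe sets of Clu, 1 of Lyve1 and that of Glycam1, and none of Cr2 or Madcam1 passed. Cr2 is also among the B cell markers of the lymphocyte score. With that score as a covariate 2 of the 12 were higher, where 8.99% of all probe sets were called in either direction. The list's mean was 0.18 to 0.64 in males at 10 and -0.89 to -0.0024 in males at 0. Whether the 4 probe sets that rose read such cells in this tissue was not tested. The part of such cells in the values of Cxcl13 was not tested either.

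With the covariate, 6 of 54 probe sets were called in males at 10, beside 8.99% of all, and 4 in females at 10, beside 3.10%. In males they were Xcl1, higher, and Cxcl12 (1387655_at), Cxcl13, Cxcr2 and both probe sets of Cxcl14, lower. In females they were Cxcl13, Cxcr2 and both probe sets of Cxcl14, all lower. The male difference of Cxcl12 was -0.86 ± 0.11 with the covariate and -0.85 ± 0.10 without it. In the interaction at 10 the covariate left 0 of 54 called, beside 0.126% of all probe sets, and the Cxcl12 interaction was -0.62 there (adjusted p = 0.130).

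**Figure D4:**
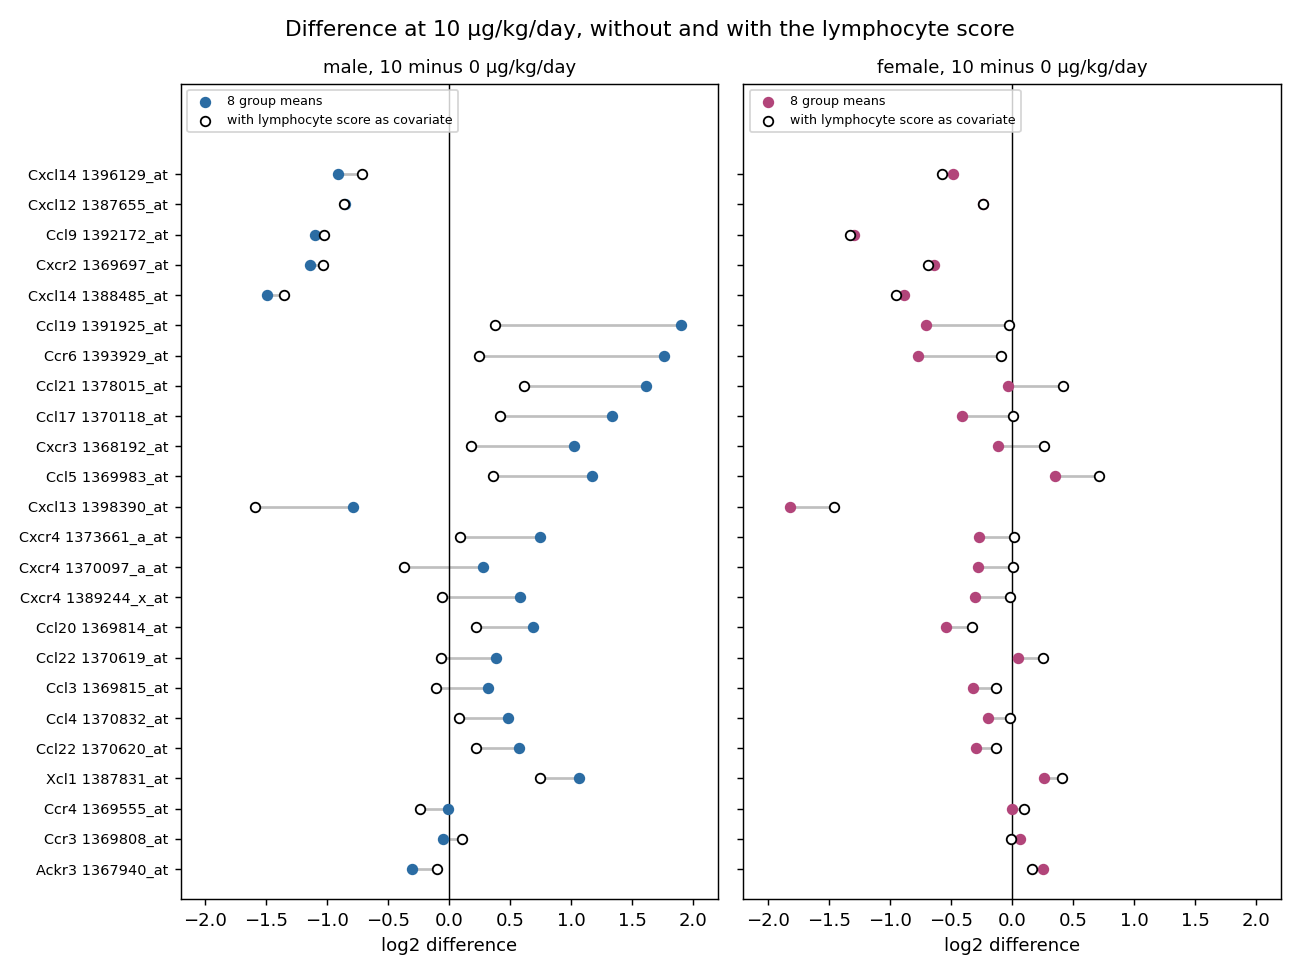
Log2 difference at 10 minus 0 µg/kg/day for the 24 chemokine probe sets called in a slope on the lymphocyte score or at 10, in males (left) and females (right), from the fit of 8 group means (filled) and with the lymphocyte score as a covariate (open). In males Ccl19 is at 1.90 without and 0.38 with the covariate and Cxcl13 at -0.79 and -1.59, and Cxcl12 is at -0.85 and -0.86.

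Ccl9, a macrophage ligand of Ccr1 known from mice, was high in 3 of the 5 arrays with hepatocyte transcripts. It read -0.31, -0.03 and -0.35 in males at 10, and 0.65, 0.84 and 1.10 in males at 0. In females it read -0.72, -0.21 and -0.48 at 10, and 2.22, 0.24 and 0.01 at 0. Among the females its highest array was replicate 1 at 0, with a hepatocyte score of 2.43. Among the males, replicate 1 at 0 read 0.65 for Ccl9 at a hepatocyte score of -0.03. Ccl9 fell by 1.10 ± 0.35 in males at 10 (adjusted p = 0.0369), and the call was lost without any 1 of the 6 arrays (adjusted p from 0.0653 to 0.111). With the lymphocyte, hepatocyte and skeletal muscle scores in 1 fit the difference was -0.44 (adjusted p = 0.423). In females at 10 it was -1.30 ± 0.35 (adjusted p = 0.0649), and -0.60 without female replicate 1 at 0 (adjusted p = 0.100).

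The neutrophil ligands gave few calls. Cxcl3 was read by 5 probe sets, and its paralogs Cxcl1 and Cxcl2 are close in sequence, so a probe set may read more than 1 of them. One of the 5, 1388033_at, read 0.19, 0.60 and 0.54 in males at 1 and -0.09, -0.09 and 0.08 in males at 0. On this probe set Cxcl3 rose by 0.48 ± 0.11 there (adjusted p = 0.0235). The call was lost without male replicate 1 at 0 (0.45, adjusted p = 0.124), male replicate 2 at 0 (0.45, adjusted p = 0.0736), male replicate 8 at 1 (0.40, adjusted p = 0.0886) or male replicate 9 at 1 (0.43, adjusted p = 0.122). At 10 the same probe set read -0.16 and -0.24 in 2 of the 3 males. The other probe sets of Cxcl3 were not called in males at 1. Male means at 1 and at 0 were 0.04 and 0.01 on 1370633_at, and 0.19 and -0.02 on 1370634_x_at. They were 0.16 and -0.03 on 1388032_a_at, and 0.06 and -0.04 on 1393182_at. Cxcl1 differed by 1.02 ± 0.40 in males at 1 and by 0.86 ± 0.40 in males at 10, neither past the test, and its male controls spread from -1.25 to 0.30.

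Cxcl9, Cxcl10 and Cxcl11, the interferon-induced ligands of Cxcr3, lie side by side in the genome and were high in single arrays. In females at 1, Cxcl11 read 3.16 in replicate 7 and -0.03 and 0.14 in the other arrays, and Cxcl9 read 1.88 and 1.94 on its 2 probe sets in replicate 7. Cxcl10 read 1.33 in that array and 0.62 and -0.14 in the others. In females at 10, replicate 12 read 1.63 for Cxcl11 and 1.17 for Cxcl10, with 0.20 and 0.34 for Cxcl9. The 3 ligands thus peaked together in 1 array and 2 of them in another.

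The mean of 29 interferon response genes was 0.32 and 0.07 in these 2 arrays, where it ranged from -0.52 to 0.32 over the series. The female difference of Cxcl11 at 1 was 1.03 ± 0.55 over all arrays and -0.0023 without replicate 7, and none of the 3 genes passed in any dose comparison. In males at 10 the point differences of the 3 ligands pointed apart: -0.81 ± 0.29 and -0.93 ± 0.32 for Cxcl9 (adjusted p = 0.0649 and 0.0523), 0.62 ± 0.39 for Cxcl10 and 0.42 ± 0.55 for Cxcl11. Of 42 interferon response probe sets, Tap1, Tap2 and Irf7 rose in males at 10, by 0.42 ± 0.11, 0.57 ± 0.16 and 0.60 ± 0.17, and 0 fell, beside the 7.81% of all probe sets that were higher. None of the 3 passed with the lymphocyte score as a covariate (adjusted p from 0.05005 to 0.123), a fit that called 8.99% of all probe sets there. In females at 10, 0 of the 42 passed, beside 1.86% of all probe sets.

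**Figure D5:**
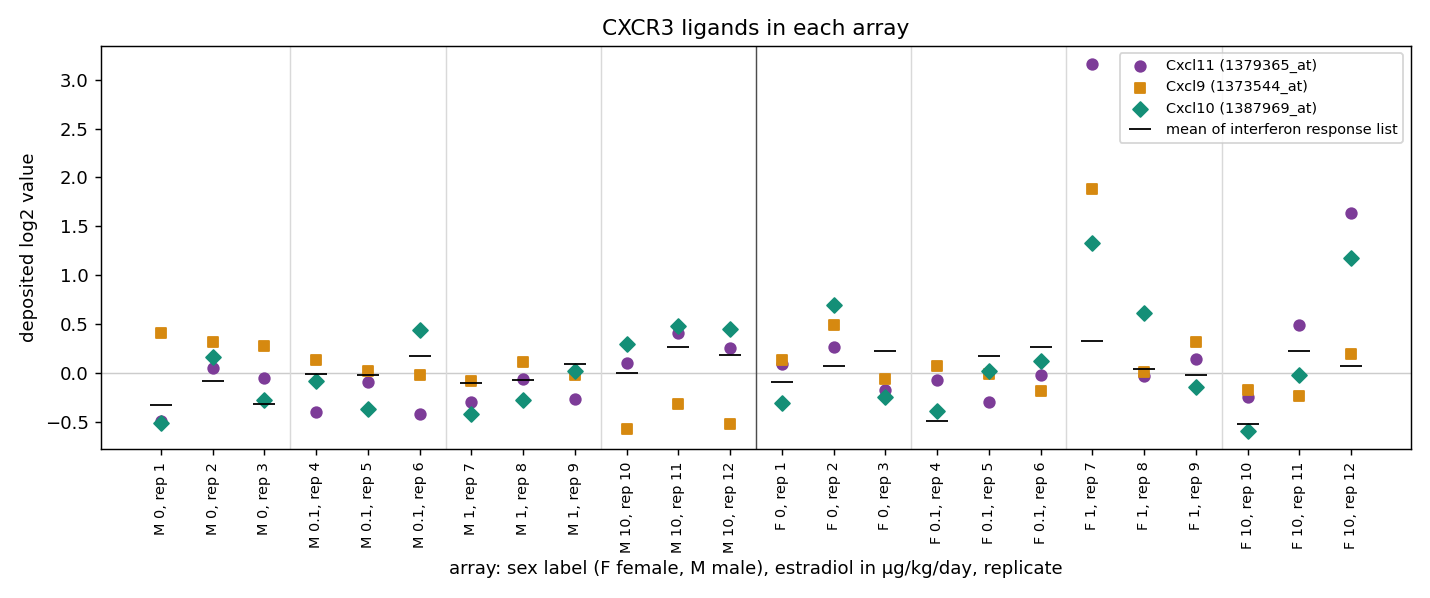
Deposited log2 values of Cxcl9 (probe set 1373544_at), Cxcl10 and Cxcl11 in each of the 24 arrays (x axis: sex label, dose and replicate, males left), with a dash at the mean of the interferon response list. Female replicate 7 at 1 µg/kg/day reads 3.16 for Cxcl11, and the males at 10 read between -0.57 and -0.31 for this probe set of Cxcl9.

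The promoters of Cxcl10 and Cxcl11, neighbours that peaked in the same arrays, are shown likewise.
Cxcl10 (GRCr8, chr14:15988816-15989115, plus strand): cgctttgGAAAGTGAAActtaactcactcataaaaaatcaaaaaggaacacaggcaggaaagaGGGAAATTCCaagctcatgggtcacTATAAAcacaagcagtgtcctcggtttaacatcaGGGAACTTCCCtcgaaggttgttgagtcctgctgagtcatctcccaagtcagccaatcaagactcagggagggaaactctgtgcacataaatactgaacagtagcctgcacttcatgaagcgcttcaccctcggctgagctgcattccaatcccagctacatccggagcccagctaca
Cxcl11 (GRCr8, chr14:15973478-15973777, plus strand): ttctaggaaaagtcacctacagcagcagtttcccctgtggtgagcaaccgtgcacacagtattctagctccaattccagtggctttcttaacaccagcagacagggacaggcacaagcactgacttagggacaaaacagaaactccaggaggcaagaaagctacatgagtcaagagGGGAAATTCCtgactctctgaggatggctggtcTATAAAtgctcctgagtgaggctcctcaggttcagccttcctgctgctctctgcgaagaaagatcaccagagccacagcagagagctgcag
Cxcl10 holds NF-kB letters at -187 and overlapping ones at -128 and -127, a TATA box at -162 and the interferon element at -243. Cxcl11 holds NF-kB letters at -74 and a TATA box at -41.

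Monocyte and eosinophil chemokines did not pass. Ccl2, the main monocyte attractant, read -0.57, -0.42 and -0.42 in females at 10, and 0.23, 0.11 and 0.18 in females at 0, a difference of -0.64 ± 0.20 without overlap (adjusted p = 0.107). In males at 10 it differed by -0.50 ± 0.20 (adjusted p = 0.0842). Its receptor Ccr2 differed by -0.57 ± 0.26 in males at 10 (adjusted p = 0.137) and by 0.06 ± 0.26 in females at 10. Ccl11, eotaxin, read near 0 in males at 10, from -0.25 to 0.08, and -1.84, -1.13 and -0.39 in males at 0, a difference of 1.06 ± 0.44 (adjusted p = 0.0998). Ackr3 differed by -0.30 ± 0.15 in males at 10 and by 0.25 ± 0.15 in females at 10, and the interaction of -0.56 did not pass (adjusted p = 0.175). The membrane-bound ligand Cx3cl1, fractalkine, differed by 0.69 ± 0.22 in males at 1 (adjusted p = 0.0836) and by 0.48 ± 0.22 in males at 10. Its receptor Cx3cr1, a marker of resident myeloid cells, had dose differences from -0.11 to 0.08 (95% confidence intervals within -0.31 to 0.28).

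Of the 42 genes, 8 were called in a dose comparison or interaction, 16 further probe sets were called only in a slope and 29 of the 54 probe sets in neither. The 21 genes without any call, among them Ccl6, Ccl7, Ccl24, Ccl27, Ccl28, Ccr1, Ccr10, Cxcl2, Cxcl6 and Cxcl16, had dose differences between -0.93 and 1.28. With 3 arrays a group, differences of that size are not shown to be absent.

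Other genes of the chemokine pathway gave 5 higher and 7 lower of 76 probe sets (44 genes) in males at 10, beside the 17.5% called on the whole array. Grk5, a kinase that desensitizes G protein-coupled receptors, fell by 0.98 ± 0.12 in males at 10 and by 0.59 ± 0.12 in males at 1, and its interaction at 10 was -0.70 ± 0.17 (adjusted p = 0.0430). Rarres2, which encodes the adipocyte chemoattractant chemerin, fell by 0.85 ± 0.11 in males at 10, by 0.46 ± 0.11 in males at 1 and by 0.56 ± 0.11 in females at 10, where it was the only one of the 76 to pass. Ackr4, the scavenger of Ccl19 and Ccl21, fell by 0.86 ± 0.20 in males at 10, and Tiam1, which activates Rac in migrating cells, rose by 0.48 ± 0.13. With the lymphocyte score as a covariate 1 of the 76 was higher and 2 were lower in males at 10. The calls of Ackr4 (adjusted p = 0.0507), of Tiam1 (adjusted p = 0.0665) and of the Grk5 interaction (adjusted p = 0.189) were lost. Over the whole array the share called went from 17.5% to 8.99% in males at 10 with that covariate. In the interaction at 10 it went from 1.28% to 0.126%. Of 24 probe sets for inflammatory NF-kB targets, Ptgs2, the inducible prostaglandin synthase, fell by 1.29 ± 0.18 in males at 10 and no other passed. In females at 10, 0 of the 24 passed, beside 1.86% of all probe sets.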

How the data were processed

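Labelled total RNA of mammary glands was hybridised to 24 Affymetrix arrays, and the submitters' processing notes name only GCOS, the Affymetrix software. The values deposited for 31099 probe sets are signed logs, taken here as log2. How they were summarized, normalized and centred, and to which base, was not given in these sources. The values nearest 0 were equal and opposite (tolerance 2e-06) in 41.9% of probe sets among male arrays and in 45.3% among female arrays, a sign of centring within each sex. Array medians lay between -0.02 and 0.01, and nothing further was normalized. Leaving out 57 Affymetrix controls, 31042 probe sets were fitted with 8 group means in limma 3.58.1 (R 4.3.3; 16 residual and 2.95 prior degrees of freedom). The interaction is the male minus the female difference from 0. Slopes on a marker score were fitted beside the group means, without the score's own probe sets (30998, 31006 and 31021 tested for lymphocytes, fibroblasts and macrophages). Scores are means over genes of their probe sets' means. The same functions were tested on simulated data.

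Sample titles gave the groups. The chemokine genes, the marker and pathway lists and the tests were chosen with earlier results of these data known. Named are the chemokine probe sets past the threshold, a fixed set of well-known chemokine genes and up to 4 members of a list by smallest p where some passed. Further lists were summarized: in males at 10, 7 of 14 keratinocyte probe sets rose. Of 21 macrophage probe sets 1 fell there, and of 26 skeletal muscle and 20 hepatocyte ones 2 and 5 fell. The shares of all probe sets in males at 10 were 7.81% higher and 9.64% lower. Gene symbols are those of the platform annotation.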

Additional observations from a re-analysis of the deposited data

Results flagged for a closer look

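The interaction of Cxcl12 at 10 µg/kg/day on the probe set 1387655_at was -0.61 on the log2 scale (adjusted p = 0.0390, limma), the test being that of the male against the female difference. The male difference from 0 was -0.85 and the female one -0.24. The call was lost under 5 of 8 alternatives, with adjusted p-values of 0.196 without the 5 arrays with hepatocyte transcripts, 0.130 with the lymphocyte covariate, 0.0927 with 3 covariates, 0.262 with the beta-actin covariate and 0.122 after quantile normalization, and without any 1 of 10 of the 12 arrays concerned. It was the only one of the 54 chemokine probe sets past the test of an interaction. The other probe sets of the gene had interactions of 0.21 ± 0.14 and 0.29 ± 0.18, opposite in sign and not past the test.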

How the results depend on the processing

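Of the 13 calls in dose comparisons and the interaction, 3 held under every alternative and whichever array was left out: Cxcl12 (1387655_at), Cxcl14 (1388485_at) and Cxcr2 in males at 10. Of the 19 lymphocyte slopes 9 did so. No result called in the main fit or with the lymphocyte covariate changed sign in any of these fits. Differences that were not called are not covered by this check. Leaving out single arrays gave 5 to 13 calls in males at 10, 0 to 4 in males at 1, 0 in males at 0.1, 0 to 2 in females at 10, 0 in females at 1 and 0 to 1 in females at 0.1 (1 without replicate 4 at 0.1). It gave 0 to 1 in the interaction at 10, 0 in those at 0.1 and 1, and 14 to 21 lymphocyte, 1 to 7 fibroblast (7 without female replicate 10 at 10) and 0 macrophage slopes. Dropping the 5 arrays that carried hepatocyte transcripts left 1 male control, whose spread was taken from the rest of the arrays, and 11 were called in males at 10, 1 in males at 1 and 0 in females at 10. Array weights gave 17 in males at 10, 5 in females at 0.1, 9 in the interaction at 10 and 12 fibroblast slopes. The beta-actin covariate gave 3 in males at 10, 4 in males at 0.1 and 0 in the interaction at 10, which was also 0 with the lymphocyte covariate, with the lymphocyte, hepatocyte and skeletal muscle covariates and after quantile normalization. In males at 1 the count was 4 with these 3 covariates, 1 after quantile normalization and 1 with only the 2 groups compared. Fibroblast slopes numbered 0 with all 3 scores in 1 fit. Fits of 1 sex alone, chosen after seeing the data, gave 0 fibroblast slopes in each sex and 10 lymphocyte slopes in males. The causes were not tested. With the replicate number as a block, the interactions gave 0, 0 and 1 calls at 0.1, 1 and 10, and Cxcl12 stayed at -0.61. Same-numbered male and female arrays deviated together by correlations of -0.485 to 0.592, so the numbers were not taken as a pairing.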
